A study of Mus musculus with 2031 samples.

Results

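AST3 is an astrocyte subtype that the study's authors found in the cortex and the hippocampus of adult mice, and the question here was how AST3 cells of the hippocampus differed from AST3 cells of the cortex. The members were the cells that the study's own cell list assigns to AST3: 452 of the 2030 cells that have a deposited count table after the authors' quality filters, of which 65 and 82 came from the 2 hippocampal suspensions and the rest, in nearly equal parts, from the 2 cortical ones. The authors had found AST3 by clustering the same counts over both areas together. All mice were C57BL/6J at postnatal day 56. The 2 cortical suspensions came from 1 animal each, which were littermates, and each hippocampal suspension was pooled from 4 littermates, with a different litter for each. The region is thus confounded with the litter and with how many animals a suspension pooled, and these cannot be told apart. Tissue was dissociated with papain and cleared of myelin on Percoll. Viable cells that carried ACSA-2, an epitope of ATP1B2, and lacked the oligodendrocyte antigen O1 were sorted singly into wells and sequenced with Smart-seq2, which reads full-length cDNA and does not mark molecules, so that every count is a read.

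Astrocytes take up the glutamate, GABA and potassium that neurons release, are coupled to each other by connexins, and secrete proteins that promote or restrain synapses. They also hold the enzymes that make serine and glycogen, and many receptors for peptides and amines. GFAP, their best known filament, is in the adult mouse more common in hippocampal than in cortical astrocytes.

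The label was set beside its markers. This is no independent check, since the cells had been sorted on ATP1B2 and typed from these same counts. The 12 astrocyte markers all had counts in the 4 AST3 sums and together made up 46771 and 46997 counts per 1e6 in cortex and 47746 and 49212 in hippocampus. In the study's scheme, AST3 cells hold Agt, which encodes angiotensinogen, and little Gfap or Unc13c. Agt was counted in 56.5% and 49.01% of cortical and 84.6% and 80.5% of hippocampal AST3 cells. Unc13c was counted in 11.7% and 12.6% against 6.15% and 2.44%. Gfap was counted in 28.6% and 33.1% of cortical but in 55.4% and 54.9% of hippocampal AST3 cells. The Gfap shares of hippocampal AST1 cells, the subtype that the scheme marks by Gfap, were 72.7% and 75.2%, but those of cortical AST1 cells were 24.6% and 32.7%, no higher than in cortical AST3 cells. By level, in CPM scaled jointly over both subtypes, Gfap was lower in AST3 than in AST1 in each area, at 697 and 591 against 1488 and 1351 in hippocampus and at no more than 255.8 against 279.4 and 531.7 in cortex, and hippocampal AST3 cells held more Gfap than cortical AST1 cells. Of the markers of other cell types, the 9 mural genes summed to 135.9, 123.1, 104.8 and 68.2 counts per 1e6 in cortex 1, cortex 2, hippocampus 1 and hippocampus 2, mostly Pdgfrb, and the 8 endothelial genes to 3.68, 3.03, 4.62 and 0.0163. The 9 neuronal genes summed to 24.2, 18.5, 42.3 and 13.7, the 7 microglial genes to 88.9, 131.1, 80.5 and 62.8 (with Csf1r, Cx3cr1 and Tmem119 at 0 to 2 counts in each sum), and the 7 ependymal and choroid plexus genes to 26.7, 24.1, 32.3 and 20.7. Their part in the results was not tested. Among defining markers, Myh11, C1qa, Kdr, Ttr and Pdgfra were at 0 in all 4 sums, but others had counts. In the same order of suspensions, the neuronal Snap25 had 2303, 3183, 2971 and 1438 counts and the microglial P2ry12 2846, 2217, 1010 and 2. The microglial C1qb had 681, 2, 1 and 0 counts and the mural Rgs5 12, 1330, 0 and 505. All suspensions held chromosome Y transcripts and almost no Xist: Eif2s3y stood at 249.3, 255.4, 271.7 and 243.9 counts per 1e6, Ddx3y at 105.2, 71.2, 83.6 and 92.6, and Xist had 0, 0, 1 and 0 counts. Tsix had no count in any AST3 cell.

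The areas also stood apart in depth and in measures of RNA quality. In cortex the median AST3 cell held 1711229 (suspension 1) and 1745831 (suspension 2) gene counts, in hippocampus 1587135 and 1462534. Genes per cell were 2627.5 and 2584 at the median in cortex against 2051 and 2112 in hippocampus. The share of reads outside exons was 10.7% and 9.55% against 12.1% and 11.9%, and the share of gene counts on the mitochondrial genome was 2.87% and 3.05% against 3.62% and 3.80%. Relative to the ERCC spike-ins, synthetic RNAs added to every well, gene counts lay at 4.88 and 4.93 in cortical cells against 4.38 and 4.51 in hippocampal cells on the log2 scale. None of these 5 measures overlapped between the areas, but with 2 suspensions a side the exact permutation test, two-sided, cannot go below p = 0.33, which each of them reached. Library PCR ran in 2 thermal blocks: all cortical AST3 cells were in block 1, and of the hippocampal cells only 12 and 8 were, so the block can hardly be told apart from the region.

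Counts were summed over the AST3 cells of each suspension, and 3405 genes with a count in over 25% of the cells of either area were tested with edgeR. Levels are given as CPM, counts per 1e6 of a library, scaled by the TMM method. Of these genes, 54 were higher in hippocampal AST3 cells at a Benjamini-Hochberg adjusted p under 0.05 (1.59% of those tested) and 28 were lower (0.822%). The genes higher in hippocampus differed by 0.80 on the log2 scale at the median and by 0.32 to 2.69 overall. Those higher in cortex differed by 1.59 at the median and by 0.41 to 2.98. They were less abundant, with a median of their mean levels of 275.8 CPM against 858.3 CPM for the genes higher in hippocampus. The difference of 2.98 is that of a pseudogene, Gm6548, at 3.49 and 3.83 CPM in cortex, where 1 cell gave 35.9% of its counts. The median over all genes tested was 0.01. The 4 sums of each of the 82 genes did not overlap between areas, which was also so for 24.8% of all genes tested with hippocampus above and for 23.7% with cortex above.

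**Figure D1:**
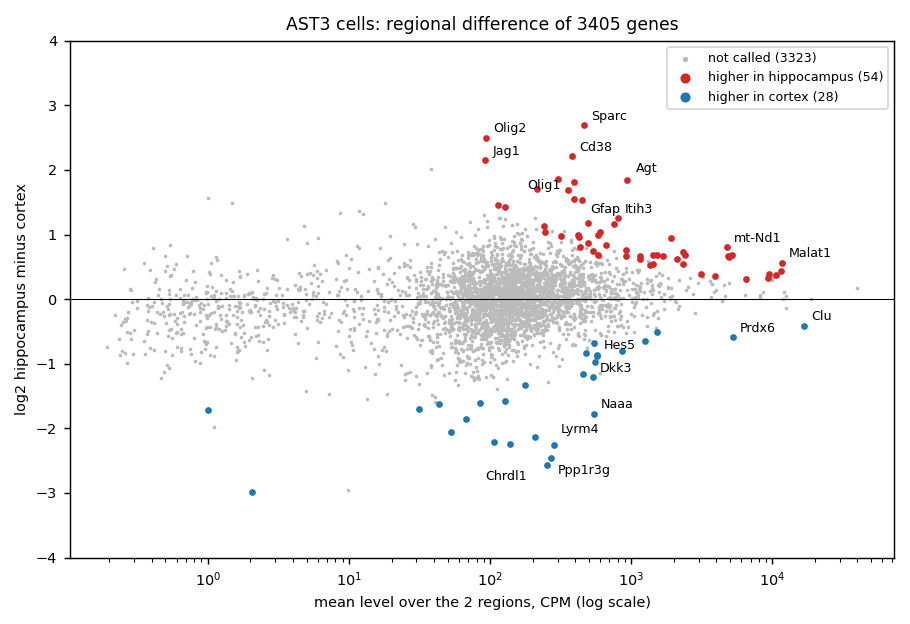
Each point is 1 of 3405 genes in AST3 cells: the horizontal axis (log scale) is the mean of the cortical and hippocampal levels in CPM, the vertical axis the fitted log2 difference, hippocampus minus cortex, with 1 gene outside the plotted range of -4 to 4. The 54 red genes, led by Sparc at 2.69, and the 28 blue genes are those with an adjusted p under 0.05, and abundant genes among them, such as mt-Nd1 at 0.81 and Malat1 at 0.56, lie nearer to 0.

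How many genes passed depended on which genes were tested. With the low-count filter of edgeR, which kept 14960 genes, and with no filter, which kept 21060, edgeR called 0 genes in either direction (1547 and 1123 had an unadjusted p under 0.05, which is 10.3% and 5.33%, against 558 or 16.4% of the 3405). Of the 28 genes lower in hippocampus 13 had passed the 25% filter through the cortical cells alone, and of the 54 higher genes 5 through the hippocampal cells alone, so that their shares of cells had to differ in that direction. Of all 3405 genes tested, 905 had passed through the cortical cells alone and 74 through the hippocampal cells alone, so the filter let in far more genes by their cortical share. Scaled by library size alone, 32 genes were higher and 36 lower, with the median of all genes at -0.10, and the 82 genes kept their direction. Among the 2426 genes above 25% in both areas, 39 were higher and 24 lower. Over all 3405 genes DESeq2 called 2.64% higher and 3.02% lower. For limma these shares were 1.47% and 16.6%, with the median of all genes at -0.44. Of the 54 and 28 genes DESeq2 called 34 and 24, and limma 37 and 27. Among those that DESeq2 did not call were Sparcl1, Gja1, Clu, Selenop, Malat1, Slc7a10, Prdx6, Phgdh, mt-Nd5 and Cd81. Their DESeq2 adjusted p-values ran from 0.0514 for Cd81 to 0.411 for Sparcl1. Slc7a10, Selenop and mt-Nd5 were not called by limma either. Suspensions with the same number shared 7 library preparation days and others none. Reverse transcription days were shared by same-numbered suspensions (2 for number 1, 6 for number 2) and by the others as well (6 for cortex 1 with hippocampus 2, 4 for cortex 2 with hippocampus 1). With the library preparation pairing as a block 96 genes were higher and 51 lower, including all 82. The number of calls also moved with single suspensions: 37 higher and 21 lower genes without cortex 1, 23 and 9 without cortex 2, 8.69% and 8.46% of the genes tested without hippocampus 1, and 9.87% and 11.1% without hippocampus 2. All 82 were also called when either hippocampal suspension was left out, 55 of them without cortex 1 and 31 without cortex 2. In each of these fits an area is left with 1 suspension, which is assumed to vary like the 2 of the other area. The 21 higher and 8 lower genes called in each of these 4 cases included Sparc, Agt, Cd38, Olig1, Olig2, Itih3, Ednrb, Serpine2, Slc4a4, Lrig1, Cd81, Spon1, Gfap, Gjb6, Kcnj16, Slc20a2, Pla2g7, Malat1, mt-Nd1 and mt-Rnr2, and Naaa, Lyrm4, Prdx6, Ppp1r3g, Dkk3, Rpe65, Chrdl1 and Gm6548. The other called genes lost the call in 1 or 2 of these cases. With 2 suspensions an area, p measures only the spread between these 4 cell suspensions. The test also draws the variance of each gene towards a trend over all genes tested, so p depends on which genes these are. Within thermal block 1, which keeps all cortical cells and only the 12 and 8 hippocampal ones, no gene was called (edgeR, 8.25% with an unadjusted p under 0.05), and the medians of the 54 and 28 genes were 0.68 and -1.37. Among cells whose cDNA was measured on the date shared by all suspensions, 0 were called (edgeR, 8.81% with an unadjusted p under 0.05), and the medians were 0.96 and -1.51. Both are parts of the cells by which the genes were called, so these medians are no independent values.

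The promoters of the 2 genes with the lowest p in each direction are shown to place these genes, with every CG pair in capitals. They are RefSeq sequences of GRCm38.p6, 250 bases before to 50 after the start, read 5′ to 3′ on the strand of the gene, and all 4 genes lie on the minus strand. Sparc is higher in hippocampus and its window, chr11:55420031-55420330, starts its transcript 3103 bases inside the outermost start in Gencode:
Sparc: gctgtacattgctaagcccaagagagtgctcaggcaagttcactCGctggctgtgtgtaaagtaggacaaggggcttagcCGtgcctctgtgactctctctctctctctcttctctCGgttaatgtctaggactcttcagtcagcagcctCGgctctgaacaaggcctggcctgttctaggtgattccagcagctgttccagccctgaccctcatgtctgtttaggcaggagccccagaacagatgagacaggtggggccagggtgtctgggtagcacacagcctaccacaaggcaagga
Agt, also higher in hippocampus, has the window chr8:124569657-124569956:
Agt: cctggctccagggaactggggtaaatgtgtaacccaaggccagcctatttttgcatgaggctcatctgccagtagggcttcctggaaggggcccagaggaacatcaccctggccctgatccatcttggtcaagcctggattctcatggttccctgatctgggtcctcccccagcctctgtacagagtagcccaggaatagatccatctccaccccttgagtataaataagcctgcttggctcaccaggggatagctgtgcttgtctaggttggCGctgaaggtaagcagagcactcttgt
Naaa, higher in cortex, has the window chr5:92278132-92278431:
Naaa: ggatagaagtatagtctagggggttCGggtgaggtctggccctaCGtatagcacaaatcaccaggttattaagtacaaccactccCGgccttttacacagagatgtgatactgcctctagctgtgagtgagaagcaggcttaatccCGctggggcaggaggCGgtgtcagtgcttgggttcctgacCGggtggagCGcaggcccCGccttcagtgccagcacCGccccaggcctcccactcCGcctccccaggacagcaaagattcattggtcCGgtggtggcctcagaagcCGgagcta
Lyrm4, higher in cortex as well, has the window chr13:36117308-36117607:
Lyrm4: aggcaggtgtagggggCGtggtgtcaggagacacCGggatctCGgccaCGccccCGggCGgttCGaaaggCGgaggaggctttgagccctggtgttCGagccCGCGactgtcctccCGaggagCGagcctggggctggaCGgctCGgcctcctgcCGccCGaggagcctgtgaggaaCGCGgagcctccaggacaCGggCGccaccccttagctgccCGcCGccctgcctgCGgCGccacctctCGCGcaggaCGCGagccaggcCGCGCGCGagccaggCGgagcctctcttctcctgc
The windows hold 4, 1, 12 and 34 CG pairs in this order, against a median of 22 over the 2369 tested genes with such an entry. Agt holds the letters TATAAA 30 bases before its start, letters that occur on either strand in 7.09% of those 2369 windows and in none of the other 3 shown. Of the called genes 41 of the 54 and 17 of the 28 had an entry, with medians of 13 and 12 CG pairs. The windows shown thus do not stand for their sets, and promoter content was not tested between the sets.

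Sparc, a secreted matrix protein that restrains the synapse-forming action of its relative Sparcl1, had the largest rise in hippocampus. It stood at 128.9 and 118.9 CPM in cortical and 688 and 909 CPM in hippocampal AST3 cells, so every hippocampal sum lay far above both cortical ones. The difference was 2.69 on the log2 scale (SE 0.19, adjusted p = 0.00177), a 6.44-fold higher level. The gene lies at chr11:55394500-55423183 (GRCm38). Agt (chr8:124556534-124569706), the precursor of the angiotensin peptides and in the brain chiefly an astrocyte product, stood at 438 and 373.1 CPM against 1616 and 1309. It was 3.61-fold higher in hippocampus (log2 difference 1.85, SE 0.15, adjusted p = 0.00177). Cd38, an enzyme that consumes NAD, stood at 152.3 and 114.8 CPM in cortex and 549 and 693 CPM in hippocampus, a log2 difference of 2.22 (SE 0.21, adjusted p = 0.00334).

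Olig1 and Olig2, neighbouring genes for transcription factors best known from the oligodendrocyte lineage and also expressed by some astrocytes, were both higher in hippocampus. Olig1 went from 158.9 and 189.5 CPM in cortex to 660.1 and 563 in hippocampus (log2 difference 1.81, SE 0.18, adjusted p = 0.00334). Olig2 went from 23.8 and 32.7 to 173.9 and 145.01 CPM (2.50, SE 0.31, adjusted p = 0.00682). Within thermal block 1 the differences of Olig1 and Olig2 were 0.98 and 2.24. Olig2 was counted in 8.44% and 12.6% of cortical and 32.3% and 32.9% of hippocampal cells, and it had passed the 25% filter through the hippocampal cells alone. In the hippocampal suspensions, 18 of the 21 and 21 of the 27 cells with Olig2 also had Olig1, against 3 of 13 and 9 of 19 in cortex. Of the cells without Olig2, 63.6% and 67.3% had Olig1 in hippocampus and 38.3% and 42.4% in cortex, so in cortex 1 Olig1 was less frequent in the cells with Olig2 (23.1%) than in those without. The 8 oligodendrocyte lineage markers summed to 592 and 533 counts per 1e6 in cortex and 688 and 535 in hippocampus, mostly Cnp at 539, 508, 601 and 467, so these sums overlapped between the areas. Cspg4 (0.00379 and 2.09 against 8.62 and 7.74, from 1 cell of each suspension) and Mbp (12.3 and 6.76 against 19.6 and 24.6) were above both cortical sums in both hippocampal ones, and Mobp and Mag overlapped. Pdgfra was at 0 throughout, and Mog had no count in 3 of the 4 sums. The part of oligodendrocyte RNA in the Olig1 and Olig2 values was not tested.

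Further genes of low p were also higher in hippocampus. Itih3, a heavy chain that binds hyaluronan, stood at 477 and 473 CPM against 1071 and 1199 (log2 difference 1.26, SE 0.12), Ednrb, an endothelin receptor, at 1349 and 1246 against 2628 and 2371 (0.95, SE 0.09), and Lrig1, a membrane protein that dampens growth factor receptors, at 149.3 and 112.9 against 478 and 478 (1.87, SE 0.20). For all 3 genes both hippocampal values lay above both cortical ones. Serpine2, a secreted protease inhibitor, and Cd81, a tetraspanin, were abundant in both areas and rose by 0.73 (SE 0.08) and 0.68 (SE 0.07). The 5 adjusted p-values lay between 0.00334 and 0.00437. Gfap was 2.89-fold higher in hippocampus, at 197.7 and 259.6 CPM in cortex and 715 and 608 in hippocampus (log2 difference 1.53, SE 0.19, adjusted p = 0.00682).

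**Figure D2:**
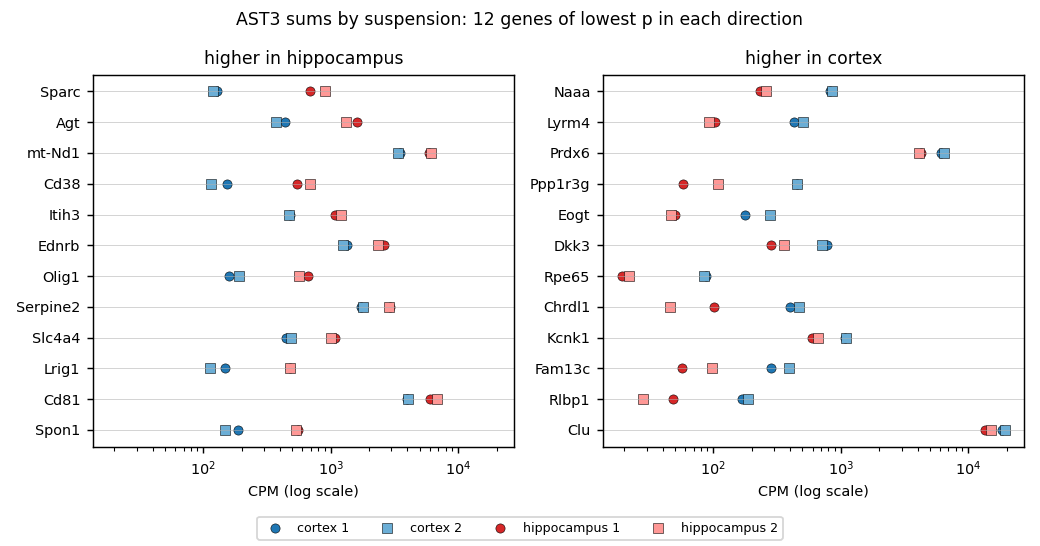
CPM (log scale) of the AST3 sum of each suspension, for the 12 protein-coding genes of lowest p in each direction; blue marks are the cortical and red marks the hippocampal suspensions, circles number 1 and squares number 2. In every row the marks of the 2 areas are apart, farthest for Sparc and closest for Clu.

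Among the genes higher in cortex, Naaa (chr5:92257659-92278170), a lysosomal enzyme that breaks down palmitoylethanolamide and related lipid amides, stood at 828 and 854 CPM in cortical and 233.3 and 258.7 CPM in hippocampal AST3 cells. Both hippocampal values were far below both cortical ones, a 3.42-fold difference (-1.77 on the log2 scale, SE 0.14, adjusted p = 0.00177). Mgll, which breaks down the endocannabinoid 2-arachidonoylglycerol, was lower in hippocampus as well, at 677 and 812 against 379.8 and 427 CPM (-0.88, SE 0.15, adjusted p = 0.0296); this gene was picked after its values were seen. Lyrm4 (chr13:35978395-36117526), a factor of iron-sulfur cluster assembly, and Ppp1r3g (chr13:35958839-35970388), which directs protein phosphatase 1 to glycogen, lie 8007 bases apart on chromosome 13 and were both higher in cortex. Lyrm4 stood at 432 and 505 CPM against 103.1 and 91.9 (-2.26, SE 0.20, adjusted p = 0.00245). Ppp1r3g stood at 457 and 453 against 57.5 and 107.9 (-2.46, SE 0.31, adjusted p = 0.00682). Both had passed the filter through the cortical cells alone.

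Chrdl1, a secreted BMP antagonist that in cortex promotes the maturation of excitatory synapses, was 5.93-fold higher in cortex: 397.4 and 468 CPM against 100.6 and 45.4 (-2.57, SE 0.37, adjusted p = 0.0116). Without hippocampus 1 its difference was -3.25. Chrdl1, Rlbp1, Rpe65 and Eogt had passed the 25% filter through the cortical cells alone. Rlbp1 and Rpe65, which are known from the retinoid cycle of the eye as a binding protein and an isomerase, were both lower in hippocampus. Rlbp1 stood at 166.5 and 185.6 CPM against 48.1 and 28.2 (-2.21, SE 0.34) and Rpe65 at 87.6 and 83.8 against 19.3 and 21.8 (-2.06, SE 0.29). Only 3.08% and 6.10% of hippocampal cells held Rpe65, 1 cell gave 43.2% of its hippocampal counts, and on the shared measurement date its difference was 0.52. Eogt, which adds GlcNAc to secreted EGF repeats, differed by -2.23 (SE 0.31) and Fam13c by -2.13 (SE 0.32). The hippocampal counts of Chrdl1 came from 7 and 6 cells, those of Rlbp1 from 5 and 5 and those of Eogt from 6 and 10. Prdx6, a peroxiredoxin, fell from 6150.1 and 6419 CPM in cortex to 4256 and 4126 in hippocampus (-0.58, SE 0.06, adjusted p = 0.00437). The 3 predicted genes or pseudogenes of lowest p, all lower in hippocampus, were Gm6548 (-2.98, SE 0.45), the predicted coding gene Gm11627 (-1.71, SE 0.29) and Amd-ps3 (-1.72, SE 0.31). All 3 had passed the filter through the cortical cells alone, and without hippocampus 1 the difference of Gm6548 was -3.90. Gm6548 and Amd-ps3 are processed pseudogenes at 3.49 and 3.83 and 1.78 and 1.28 CPM in cortex, and how far their reads came from their parent genes was not tested.

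Within the areas each gene below was counted in only part of the cells, and a cell without a count may still hold the RNA. Shares were lower in hippocampus for many genes: 905 of the 3405 had passed the filter through cortical cells alone and 74 through hippocampal cells alone. Hippocampal cells also had fewer genes and fewer gene counts relative to the ERCC spike-ins, as given above. Thinning evens out the counts of cells and not their RNA content. Sparc was counted in 27.3% and 29.8% of cortical and 72.3% and 85.4% of hippocampal cells, and after each cell was thinned to 500000 counts in 25.97% and 27.8% and 70.8% and 85.4%. Over plates with at least 5 AST3 cells its share ran from 10% to 54.5% on the 16 cortical and from 55.6% to 94.1% on the 15 hippocampal plates, so that the ranges did not overlap. In cells with a count, its median lay at 8.23 and 8.28 in cortical and at 9.36 and 9.53 in hippocampal suspensions on the scale of log2(CPM + 1), so both the share of cells and the level in them were higher. Naaa was counted in 83.8% and 82.1% of cortical and 27.7% and 29.3% of hippocampal cells (83.1% and 81.5% and 26.2% and 26.8% after thinning), and Lyrm4 in 74.03% and 80.1% and 23.1% and 19.5%. A lower hippocampal share of Lyrm4 follows from the filter, which it passed through the cortical cells alone. The shares of Naaa by plate did not overlap between the areas, with 66.7% on the lowest cortical and 40% on the highest hippocampal plate. Agt and Cd38 overlapped between plates, with 36.4% to 75.0% against 60% to 100% and 0% to 44% against 20% to 77.8%. Plates of a suspension share its mice, so these ranges describe cells and are no replicates.

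**Figure D3:**
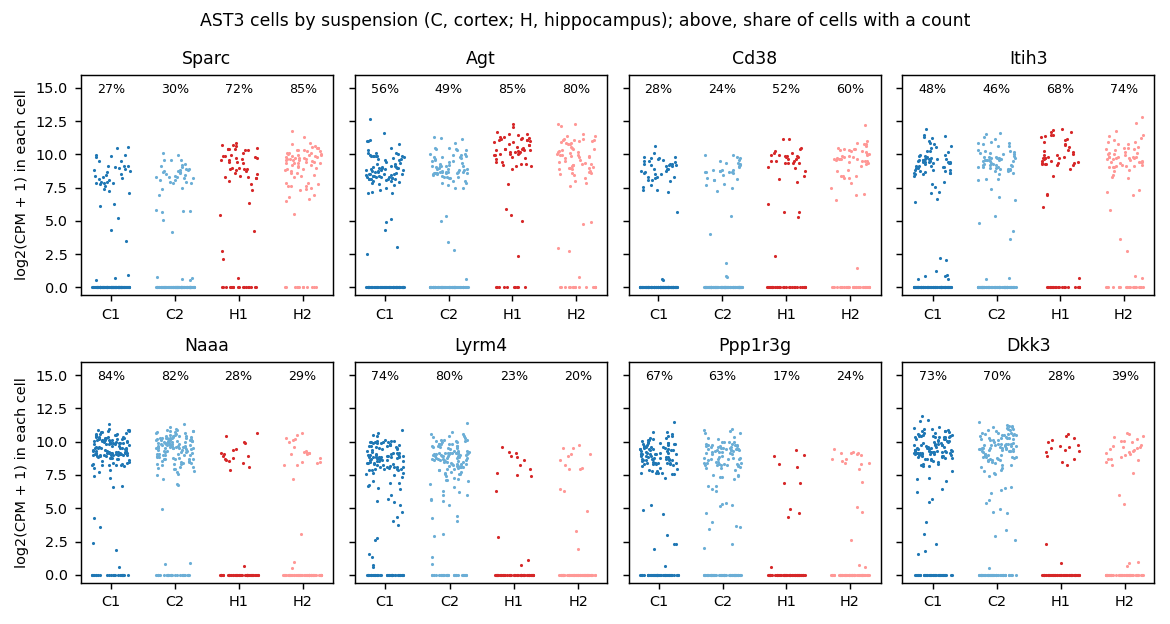
Each point is an AST3 cell, by suspension (C1 and C2 cortex, H1 and H2 hippocampus), with its level of the gene as log2(CPM + 1); the percentage above is the share of cells with a count. For the upper 4 genes this share is higher in both hippocampal suspensions and for the lower 4 in both cortical ones, as for Naaa (Lyrm4 and Ppp1r3g had passed the filter through cortical cells alone) with 83.8% and 82.1% of cortical against 27.7% and 29.3% of hippocampal cells holding a count.

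Genes that astrocytes secrete to act on synapses moved in both directions. Of the 12 tested of 20 such genes, 4 were higher in hippocampus, 1 was lower and 7 did not pass, with a median of 0.31 against 0.01 over all genes tested. Over all genes tested 1.59% were higher and 0.822% lower, the background for this and the following lists. Beside Sparc, these were its relative Sparcl1 (9379 and 9171 CPM against 11796 and 12169, log2 difference 0.37, SE 0.05), the matrix protein Spon1 (188.7 and 149.3 against 557 and 531, 1.69, SE 0.19) and Igfbp2, which binds insulin-like growth factors (663 and 748 against 1156 and 1097, 0.68, SE 0.12). The gene that was lower was Chrdl1. Spon1 had passed the filter through the hippocampal cells alone and Chrdl1 through the cortical cells alone. Of the 9 tested matrix genes, 4 were higher and 0 lower (median 0.43): Sparc and Spon1 again, the protease Mmp14 (1.05, SE 0.20) and the protease inhibitor Timp4 (0.67, SE 0.11). Of the 18 tested adhesion genes 1 was higher, Lsamp, an adhesion protein of neurons and glia (872 and 958 against 1498 and 1316 CPM, 0.62, SE 0.11), and 14 of 18 lay above 0.

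Several genes of ion and transmitter handling were higher in hippocampus. Of the 12 tested channels, pumps and exchangers, 4 were higher and 2 lower, with a median of 0.28. Slc4a4, the sodium bicarbonate cotransporter of astrocytes, went from 448 and 489.9 CPM in cortex to 1090.0 and 1003 in hippocampus (1.16, SE 0.13, adjusted p = 0.00437), and Kcnj16, which encodes the inward rectifier subunit Kir5.1, from 379.6 and 412 to 834 and 789.6 (1.04, SE 0.14, adjusted p = 0.00887). Kcnip3, a calcium-binding partner of potassium channels, differed by 1.18 (SE 0.22). The 2 that were lower were Kcnk1, a background potassium channel (1071 and 1101 against 590.2 and 658 CPM, -0.80, SE 0.12), and Atp1b1, a beta subunit of the sodium pump (585 and 665 against 217.3 and 343.3, -1.16, SE 0.23), of whose exon bases 18.7% are shared with Nme7 on the other strand. Kcnj10, the partner of Kcnj16, stood at 109.7 and 101.03 against 245.4 and 180.8 CPM and did not pass (adjusted p = 0.0923).

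Of the 10 tested genes of glutamate handling 2 were higher and 0 lower: Gria2, an AMPA receptor subunit (385.9 and 392.1 against 923 and 621 CPM, 0.99, SE 0.20), and Slc7a10, a carrier of serine and glycine (1619 and 1688 against 2364 and 2702, 0.62, SE 0.09). Phgdh, the enzyme that opens serine synthesis, went the other way, from 1421 and 1608 CPM in cortex to 976 and 967 in hippocampus (-0.64, SE 0.10, adjusted p = 0.0225); of 11 tested genes of serine and taurine these 2 passed. The connexins Gjb6 and Gja1, which couple astrocytes, were the 2 of 10 tested genes of gap junctions and endfeet to pass and rose by 0.68 (SE 0.08) and 0.40 (SE 0.05), while Aqp4, the endfoot water channel, stood at 2041 and 2095 against 2036 and 2039 CPM (-0.02, SE 0.08). Of 13 tested receptor genes 2 were higher, Ednrb and Adgrg1, an adhesion receptor (0.68, SE 0.09). Gjb6, Gja1 and Gfap were also the 3 of 12 astrocyte markers that passed.

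**Figure D4:**
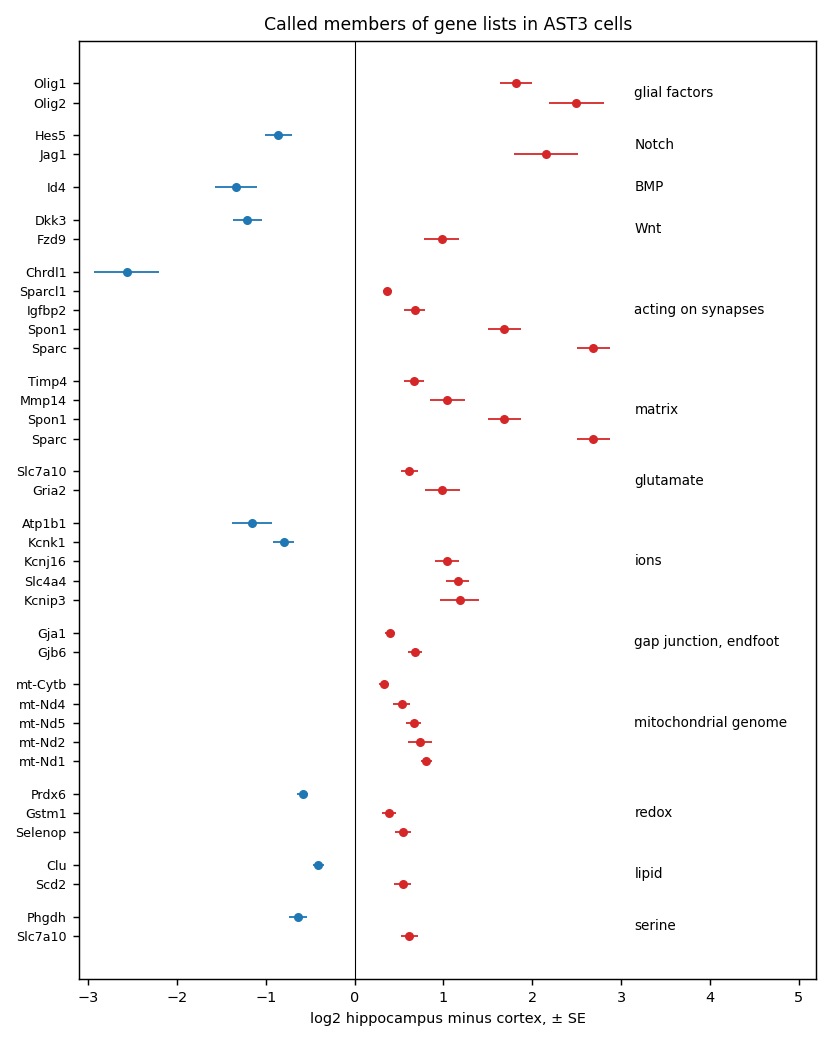
Fitted log2 difference, hippocampus minus cortex, with its SE as bars, for called members of 13 gene lists, each named at the right; a gene in more than 1 list is drawn in each. Red genes are higher in hippocampus and blue genes in cortex, and the 5 mitochondrial genes lie between 0.33 and 0.81.

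The Notch, BMP and Wnt lists each held called genes. In the Notch list, 1 of 9 tested genes was higher and 1 lower. The ligand Jag1 stood at 33.4 and 34.1 CPM in cortex and 105.7 and 194.7 in hippocampus (2.15, SE 0.36, adjusted p = 0.0253). It had passed the 25% filter through the hippocampal cells alone and had a difference of -0.73 within thermal block 1, where only 20 hippocampal cells remain. The Notch target Hes5 stood at 714 and 759 against 443 and 367.6 (-0.86, SE 0.15, adjusted p = 0.0296), and 31.8% of its exon bases are shared with a transcript on the other strand. Of 6 tested BMP genes 1 was lower, Id4, an inhibitor of basic helix-loop-helix factors (250.98 and 252.04 against 88.6 and 110.8 CPM, -1.33, SE 0.24). Of 10 tested Wnt genes 1 was higher, the receptor Fzd9 (0.98, SE 0.20), and 1 lower, the secreted Dkk3 (783 and 710.3 against 284.7 and 361.3 CPM, -1.21, SE 0.17, adjusted p = 0.0105). Within thermal block 1 the difference of Dkk3 was -0.34. Beside Olig1 and Olig2, none of the other 22 tested glial transcription factors passed in edgeR (list median 0.05).

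Of the 11 tested forebrain patterning factors, which set up the regions of the embryonic telencephalon, 0 passed in edgeR, 7 had an unadjusted p under 0.05, and 4 were called by DESeq2 and 8 by limma. The list median was -0.66. Over all genes tested, 16.4% had an unadjusted p under 0.05 in edgeR. DESeq2 called 2.64% of them higher and 3.02% lower. For limma these shares were 1.47% and 16.6%, with the median of all genes at -0.44. They are the background for such counts here and in the lists below. The lowest p-values belonged to Pax6, at a mean of 104.9 CPM in cortex and 45.4 in hippocampus (log2 difference -1.21, SE 0.28, edgeR adjusted p = 0.0733), Otx1 (-1.33, SE 0.31, adjusted p = 0.0805) and Meis2 (-1.14, SE 0.27, adjusted p = 0.0848), which were named after their values were seen. Nr2f2 lay on the other side, at 0.85 (SE 0.36, adjusted p = 0.298).

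All 13 protein genes of the mitochondrial genome lay above 0 (median 0.53), and 5 passed in edgeR, as did the ribosomal RNA gene mt-Rnr2. DESeq2 called 2 of the 13 and limma 1, and mt-Rnr2 did not pass in DESeq2 (adjusted p = 0.301). mt-Nd1 stood at 3518 and 3355 CPM in cortex and 5928 and 6108 in hippocampus (0.81, SE 0.07, adjusted p = 0.00177), and mt-Nd2, mt-Nd5, mt-Nd4 and mt-Cytb differed by 0.74, 0.66, 0.53 and 0.33. In edgeR 0 of the 76 tested nuclear genes of oxidative phosphorylation passed (median 0.09, 4 with an unadjusted p under 0.05, 1 called by DESeq2 and 6 by limma). Of the 74 tested ribosomal protein genes 0 passed (median -0.12, 0 unadjusted, 0 by DESeq2 and 15 by limma). Malat1, a long RNA kept in the nucleus, was higher in hippocampus at 10113 and 8631 against 13496 and 14185 CPM (0.56, SE 0.08, adjusted p = 0.0105), 1 of 4 tested nuclear RNAs. The mitochondrial share given above is computed from the counts of the genes of the mitochondrial genome, so it is no separate measure of them. The share of reads outside exons was higher in hippocampus as well. Its part in the values of Malat1 and of the mitochondrial genes was not tested. Of 8 tested immediate early genes 1 was lower in hippocampus, Ccn1 (-0.68, SE 0.14), and 7 of 8 lay below 0.

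Single genes of metabolism and defence passed in both directions. Scd2, a desaturase of fatty acids, was higher (0.54, SE 0.10) and Clu, the lipoprotein clusterin, lower (18564 and 19522 against 13547 and 15147 CPM, -0.41, SE 0.06, adjusted p = 0.0174) among 21 tested lipid genes. The selenium carrier Selenop (0.55, SE 0.09) and the glutathione transferase Gstm1 (0.39, SE 0.07) were higher and Prdx6 lower among 17 tested redox genes. Hsd11b1, which regenerates active corticosterone, was the 1 of 8 tested glucocorticoid genes to pass (533 and 410.5 against 836 and 847 CPM, 0.83, SE 0.16, adjusted p = 0.0403). In edgeR 0 of 20 tested genes of glycolysis, 0 of 19 of cholesterol synthesis, 0 of 9 of phagocytosis, 0 of 9 of FGF signalling and 0 of 8 of innate immunity passed, with medians of -0.11, 0.15, 0.02, 0.22 and 0.31. In the same order 4, 2, 0, 3 and 4 of these genes had an unadjusted p under 0.05, DESeq2 called 0 in each list, and limma called 8, 0, 1, 0 and 1. Of axon guidance 3 genes were tested, of the hedgehog pathway 3, of adult stem cells 4 and of the cell cycle 2, and 0 passed in edgeR (2, 1, 0 and 0 unadjusted) or in DESeq2, while limma called 0, 1, 0 and 1.

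From the genes that the study names or lists as markers for region, layer or subtype, 31 were picked here. The pick is not complete and leaves out Dbi, for instance. Some of the 31 were chosen on these same cells and some are known from earlier work, so that their count is no independent evidence. Of these 29 were tested, 9 were higher in hippocampal AST3 cells (Sparc, Agt, Spon1, Gfap, Kcnj16, Slc7a10, Igfbp2, Hsd11b1 and Gria2), 2 were lower (Chrdl1 and Kcnk1) and 18 did not pass (median 0.60). The nearest to the threshold was Tril, a co-receptor of innate immunity, at 1219 and 1019.6 against 1583 and 1712 CPM (0.56, adjusted p = 0.0501). Log2 differences of 0.68 for Fabp7, 0.60 for Slitrk2, 0.72 for Sema4b, 0.76 for Nnat, 0.79 for Etv5 and -1.15 for Id3 had adjusted p-values between 0.0857 and 0.154. Tlr3 (0.55), Gabrg1 (0.53), Il33 (0.32), Ogt (0.30), Mfge8 (-0.13), Mfsd2a (-0.27), Fam107a (-0.22), Ndp (-0.14) and Mertk (0.02) had adjusted p-values of 0.266 or more. Of the 37 genes that the study lists as AST1 markers, 8 were higher in hippocampal AST3 cells and 1, Naaa, was lower (median 0.54). Of its AST3 markers, 35 were tested, and 5 were higher and 4 lower (median 0.14). Of its 125 tested AST2 markers, 5 were higher and 6 lower (median 0.06). Beside these 3 counts stand the 1.59% higher and 0.822% lower of all genes tested, and the study chose the lists on these cells.

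AST1, the subtype with the most cells in hippocampus (57 and 55 of its 657 cells were cortical), was compared over the same 3405 genes. Its own regional comparison called 3 genes (0.0881%), Cd38, Olig2 and 3000002C10Rik, all higher in hippocampus. A gene that did not pass there may still differ by region. Of the 54 genes higher and the 28 lower in hippocampal AST3 cells, 42 and 21 had a change of the same sign in AST1. The AST1 medians of the 54 and 28 genes were 0.22 and -0.38, against -0.01 over all genes tested. Both subtypes came from the same suspensions, so these signs are no independent values. The difference of the regional changes, AST3 minus AST1, was tested in a joint edgeR fit with the suspension as a block and passed for 6 genes (0.176%). The subtypes had been separated by these counts, which limits what the test adds. Levels in this comparison are CPM under the joint scaling.

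Itih3 was the 1 gene whose change was more positive in AST3: it went from 468 and 466 CPM in cortex to 1044 and 1164 in hippocampus in AST3, and from 649 and 785 to 497 and 570.2 in AST1. The changes differed by 1.66 on the log2 scale (SE 0.20, adjusted p = 0.034). Naaa fell in hippocampal AST3 cells, from 813 and 841 to 227.5 and 251.2 CPM, but stood at 1086 and 1054 and 862 and 952 in AST1 (difference -1.55, SE 0.18, adjusted p = 0.034). Clu was lower in hippocampal AST3 cells (18216 and 19235 against 13205 and 14708 CPM) and stood at 21039.8 and 24509 against 25145 and 26335 in AST1 (difference -0.61, SE 0.07, adjusted p = 0.034). Both hippocampal AST3 sums held less Naaa and Clu than each of the other 6 sums of these subtypes.

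Olig2 had 0 and 1 counts in the cortical AST1 sums and 33.2 and 47.98 CPM in the hippocampal ones, against 23.4 and 32.2 and 169.5 and 140.8 CPM in AST3 (adjusted p = 0.0113). With so few counts the fitted fold gives no size, and the level in hippocampus was higher in AST3 than in AST1. Zfp385a, a zinc finger gene, went from 16.02 and 18.2 to 8.45 and 7.85 CPM in AST3 and from 1.25 and 1.34 to 5.25 and 6.53 in AST1 (difference -3.24, SE 0.41, adjusted p = 0.034). The cortical AST1 sums held 88 and 81 counts of it. The sixth gene, 3000002C10Rik, is named for the count and had 25 and 18 counts in the cortical AST1 sums. Without cortex 1 or cortex 2 the joint fit called 0 genes in edgeR (11.9% and 8.72% had an unadjusted p under 0.05, against 8.87%), and without hippocampus 1 or hippocampus 2 it called 16 and 23. DESeq2 called 38 genes and limma 4.02% of those tested. The next genes by p did not pass: Sparc (difference 1.78, SE 0.26, adjusted p = 0.0633), mt-Nd1 (0.59), Adgrg1 (0.85), Prnp (0.59) and mt-Cytb (0.40) on the positive side, and Ddit4 (-2.14) and Thrsp (-1.12) on the negative side. Sparc in AST1 stood at 318.8 and 232.7 CPM in cortex and 457 and 550.0 in hippocampus, so its hippocampal level was higher in AST3 and its cortical level lower. The regional difference of Gfap was 1.81 (SE 0.30, adjusted p = 0.265) in AST1 and 1.53 in AST3, and the test between them gave -0.35 (SE 0.23, adjusted p = 0.735). For Agt the regional differences were 1.03 (SE 0.12, adjusted p = 0.0794) in AST1 and 1.85 in AST3, and for Cd38 1.98 (SE 0.19, adjusted p = 0.0364) and 2.22.

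**Figure D5:**
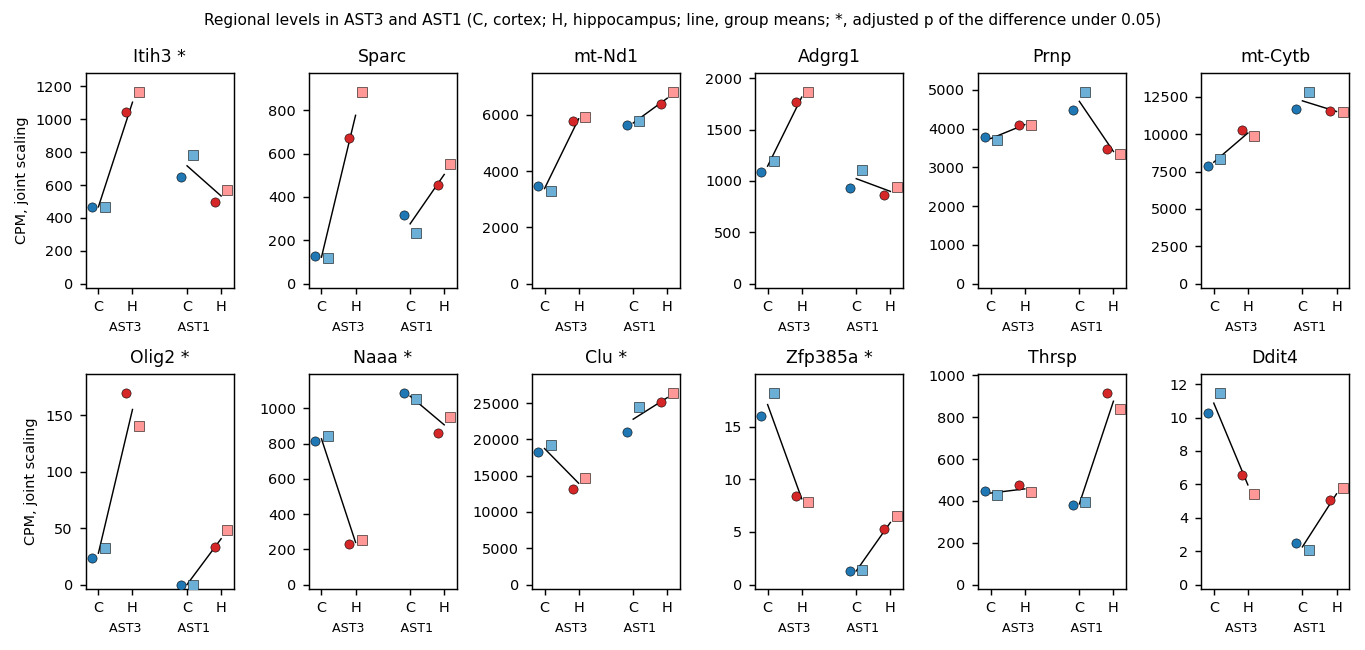
CPM under the joint scaling in AST3 and AST1 sums of each suspension (C, cortex, blue; H, hippocampus, red; circles number 1, squares number 2), with lines joining the group means, for the 6 named genes of lowest p in each direction of the difference; an asterisk marks an adjusted p under 0.05. For Itih3 the hippocampal values lie above the cortical ones in AST3 and below them in AST1, and Naaa is lowest in hippocampal AST3 cells.

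Because hippocampal AST3 cells held Gfap more often, the comparison was repeated on cells without any Gfap count (29 and 37 in the hippocampal suspensions), a choice made after seeing the data. In these cells 13 genes were higher and 0 lower in hippocampus with edgeR (420 of 3404 had an unadjusted p under 0.05). The medians of the 53 higher genes with a value and the 28 lower genes were 0.89 and -1.61, from a part of the cells by which these genes were called. Sparc differed by 3.16 (adjusted p = 0.039) and Agt by 2.17 (adjusted p = 0.0372) among them. In the hippocampal suspensions Sparc was counted in 69.4% and 91.1% of AST3 cells with Gfap and in 75.9% and 78.4% of those without. For Agt these shares were 86.1% and 80% with Gfap and 82.8% and 81.1% without. In both cortical suspensions the shares were higher with Gfap, at 31.8% and 40% against 25.5% and 24.8% for Sparc and at 61.4% and 60% against 54.5% and 43.6% for Agt.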

How the data were processed

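Single cells of 4 suspensions were sequenced with Smart-seq2. Per the labels and the study's methods, the authors checked reads with FastQC 0.11.4, aligned them to GRCm38.p5 with STAR 2.5.2b and counted them with HTSeq on Gencode M12. After removing low-quality libraries they deposited 1 table of whole-number counts for each cell, without molecular identifiers, and the kit does not mark strand. Subtypes came from the study's cell list, whose copy used here lacks 33 cortex 1 cells that have a table, and 15 further cells have no subtype. Of 49671 gene identifiers, 49412 matched Gencode M21, which gave names and positions. ERCC rows and HTSeq's summary rows stayed out of library sizes and tests.

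Counts were summed over the AST3 cells of cortex 1 and 2 (154 and 151 cells) and hippocampus 1 and 2 (65 and 82), giving sums of 263552161, 268403731, 108183293 and 122552764, and fitted in R 4.3.3 with edgeR 4.0.16 (TMM scaling, robust quasi-likelihood test, 2 residual degrees of freedom, Benjamini-Hochberg adjustment over 3405 genes). The difference between AST3 and AST1 was fitted on 8 sums with the suspension as a block. The fits were tested on simulated data. Alternatives used DESeq2 1.42.0, limma 3.58.1 (mean of log2(CPM + 1) per cell), other scalings and filters, cells thinned to 500000 counts, parts of the cells, and each suspension left out in turn. Suspension numbers were taken to pair the samples because same-numbered suspensions shared 7 and 7 library preparation days in the labels and others none, although reverse transcription days crossed the numbers and the correlation of their deviations was 0.00485 over 3001 genes.

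Named were the 12 called protein-coding genes of lowest p in each direction and called members of the gene lists. Further named were the tested genes of the list picked from the study's genes for region, layer or subtype. The 6 genes of lowest p in each direction of the difference from AST1 (without predicted genes) were named as well. So were the 3 called pseudogenes or predicted genes of lowest p. A few genes are not reported here. The cells and the lists were chosen with earlier results of these data known. Reads are not molecules, so counting error is larger than the counts imply.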

Additional observations from a re-analysis of the deposited data

Results flagged for a closer look

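For 6 genes the regional change differed between AST3 and AST1 in the joint edgeR fit (8 sums, 2 residual degrees of freedom). Olig2 had an adjusted p of 0.0113 and was higher in hippocampus in both subtypes, from 0 and 1 counts in the cortical AST1 sums. Naaa, Itih3, Clu, Zfp385a and 3000002C10Rik each had an adjusted p of 0.034. For Itih3, Clu, Zfp385a and 3000002C10Rik the fitted regional change had opposite signs in the 2 subtypes, but in AST1 alone the changes of Itih3 (-0.43, adjusted p = 0.499), Clu (0.18, adjusted p = 0.638) and Zfp385a (2.19, adjusted p = 0.0843) did not pass in edgeR, and in AST3 alone those of Zfp385a (-1.05, adjusted p = 0.0927) and 3000002C10Rik did not. The AST3 sums of the transcript 3000002C10Rik overlapped between the areas: it stood at 15.7 and 4.97 CPM in cortical and 6.51 and 0.921 CPM in hippocampal AST3 cells, against 0.356 and 0.298 CPM in cortical and 14.03 and 10.6 CPM in hippocampal AST1 cells.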

How the results depend on the processing

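Of the 54 higher and 28 lower genes, DESeq2 also called 34 and 24, and limma 37 and 27. The values here are percentages of the genes tested that were called higher and lower, 1.59% and 0.822% as reported. They were 0.94% and 1.06% with library size alone, 2.64% and 3.02% with DESeq2, 1.47% and 16.6% with limma on mean log values (the median of all genes was then -0.44), 0.558% and 0.529% at a size of at least 2-fold, and 0.382% and 0 in cells without a Gfap count, an alternative chosen after seeing the data. They were 0 and 0 with the edgeR filter, without a filter, within thermal block 1 and on the shared cDNA measurement date. With the suspension number as a replicate block, the pairing by library preparation days, they were 2.82% and 1.5%. Over the 4 fits that leave out a suspension they ran from 0.675% to 9.87% and from 0.264% to 11.1%. For the difference between AST3 and AST1, 0.176% as reported, DESeq2 gave 1.12% and limma 4.02%, and with a suspension left out 0 to 0.675%. Reversed in sign were gene counts per cell within thermal block 1 (44452 more in hippocampus, against -203696), Jag1 within that block (-0.73) and Rpe65 on the shared date (0.52). The causes were not tested. Block 1 held 12 and 8 hippocampal cells and the shared date 20 and 18, so those sums rest on few cells.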

Other observations

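The called genes that the rule did not name are given here, and were picked after their values were seen. Among those higher in hippocampus, Slc20a2, a phosphate transporter, stood at 220.5 and 179.8 CPM in cortical and 552 and 624 CPM in hippocampal AST3 cells (1.56 on the log2 scale, SE 0.18, edgeR adjusted p = 0.00543), and Lgi1, a secreted protein of synapses linked to epilepsy, at 114.1 and 88.2 against 358.6 and 301.6 (1.71, SE 0.24, adjusted p = 0.0105). Pla2g7, which degrades platelet-activating factor, differed by 0.67, and Dbi, whose peptide binds acyl-CoA and GABA-A receptors, by 0.76. The membrane genes Gpm6a (0.32), Tmem176a (0.80), Tmem229a (0.96) and Atp13a4 (0.99), the cation channel Trpm3 (1.43), the glycerophosphodiesterase Gdpd2 (1.13), the reticulum protein Rcn2 (0.69) and the RNA processing genes Son (0.69) and Cpsf6 (1.45) were also higher, as were Wsb1 (0.87) and the mitochondrial ribosomal RNA mt-Rnr2 (0.43).

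Lower in hippocampus were Scara3 (-0.83), a scavenger receptor gene that lies 14548 bases from Clu on chromosome 14, Car2, the carbonic anhydrase II gene (-0.51), the clustered protocadherin Pcdhgc5 (-1.63), whose exons are shared with other protocadherin gamma genes, Crip2 (-0.97), Tank (-1.58), Stk17b (-1.61) and Ankrd29 (-1.85). Trpm3 and Cpsf6 had passed the 25% filter through the hippocampal cells alone, and Pcdhgc5, Tank, Stk17b and Ankrd29 through the cortical cells alone. Since the library kit does not mark strand, reads of overlapping genes on opposite strands cannot be told apart: besides Hes5 and Atp1b1, such overlaps took 17.9% of the exon bases of Slc7a10 (with Lrp3), 17.3% of Gdpd2, 15.5% of Selenop (Ccdc152), 12.8% of Fam13c, 10.98% of Pla2g7, 8.49% of Eogt, 8.01% of Kcnk1, 7.26% of Olig1, 6.49% of Malat1 and 5.51% of Lyrm4 (Fars2). Olig1 and Olig2 lie 41095 bases apart on chromosome 16.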
